A study of Mus musculus with 2 samples.

Results

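Genomic models are transcript models built from long reads that overlap an annotated gene without following its splicing. All models of this class were taken from the tables of both libraries, except those on Cyp11a1, whose Genomic reads are left out by rule (6145 and 6300 reads). That gave 13436 of 130093 models, 6030 in replicate 1 and 7406 in replicate 2. A single row of replicate 2, with 1 read, lay on a spike-in control and was set aside, which left 13435. The name "within annotated genes" held for most of them. In replicate 1, 5869 models with 16435 reads lay in 4995 genes of the GENCODE M21 annotation. In replicate 2, 7203 models with 21169 reads lay in 5841 such genes. The others, 161 models with 417 reads and 202 models with 432 reads, belonged to genes that the annotation does not list.

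The libraries were made from adrenal glands, taken at 36 days of age from males of the hybrid B6CASTF1/J. These mice are the F1 offspring of the inbred strains C57BL/6J and CAST/EiJ, and no treatment or engineered allele is named in the labels. There is 1 group with 2 libraries, called replicate 1 and replicate 2 after the replicate number in the labels. Label fields disagree on whether both libraries carry the same animal number, so they may not come from separate animals and their spread may be technical. Replicate 1 held 452489 endogenous reads and replicate 2 held 463210, so 1 read was worth 2.21 and 2.16 CPM, the count scaled to the library total. Transcripts of the steroid enzymes Cyp21a1 (6639 and 5343 reads) and Cyp11b1 (2460 and 2251 reads) marked adrenal cortex in both. Genes of pancreas acinar cells had 40 reads in replicate 1 and 4691 in replicate 2, over the 22 genes of a fixed list.

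An RNA polymerase II transcript starts as a copy of the whole gene, from which introns are removed by splicing while the 3' end is made by cleavage and addition of a poly(A) tail. Cleavage is usually directed by a hexamer, most often AATAAA, a short distance upstream of the end. A long read can lack splice junctions in several ways: it can lie within a single exon, keep an intron, start inside an intron, or run past the gene. The class Genomic takes in all of these, while incomplete splice match (ISM) is the class for reads that follow part of an annotated transcript. A deposited model has 1 start and 1 end but collects reads of other lengths. Some models are a few bases long and still hold many reads, so a model's length is not the length of its reads.

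The last bases of some leading models are shown here, with and without a shared hexamer. The planned genes were those with most Genomic reads, and Slc25a5, Cfl1, Gabarapl1 and Polr2l were added to them. No window could be read for Cmss1, the gene with most Genomic reads. The windows that follow are 30 bases long and written 5' to 3' on the strand of the gene. They were read from GENCODE M21 transcript sequences on mm10, and capitals mark the hexamer AATAAA. Hsd3b1 and Star are shown for their model of replicate 2, Slc25a5, Cfl1, Gabarapl1 and Polr2l for that of replicate 1, and Apoe, Kcnk3 and Cyp11b1 have the same end in both.
Apoe, chr7:19696267-19696296, minus strand: ttgcttAATAAAgattctccgagcacattc
Hsd3b1, chr3:98852194-98852223, minus strand: aaaaacagcAATAAAtattgtaatgcctta
Kcnk3, chr5:30625242-30625271, plus strand: cctAATAAAtgctgtccatggagaccaggc
Slc25a5, chrX:36798778-36798807, plus strand: aaattgaagaAATAAAaatacccaaaacca
Cfl1, chr19:5494000-5494029, plus strand: aacaaaaaaacAATAAAaaggctaattaac
Gabarapl1, chr6:129542301-129542330, plus strand: ggaAATAAAataattgcttaccttaaaagt
Star, chr8:25815275-25815304, plus strand: tttAATAAAagcagttgtcactggcattct
Cyp11b1, chr15:74834871-74834900, minus strand: ttacatacaatagaaacagacatgtttttg
Polr2l, chr7:141473109-141473138, minus strand: agaaccaccaacaggtctaacttccaaggt
The first 5 windows run up to the last base of the model, which is an annotated 3' end of the gene, and the hexamer stops 13 to 21 bases before it. In Gabarapl1 the window stops 16 bases short of the model's end, also an annotated end, and 37 bases lie between hexamer and end. In Star the window stops 7 bases short, the hexamer lies 28 bases before the end, and that end is 671 bases upstream of the nearest annotated one. The last 2 windows close at ends that are not annotated, 746 bases upstream of an annotated end in Cyp11b1 and 1249 bases upstream in Polr2l. Neither AATAAA nor ATTAAA occurs in the last 50 bases of these 2 models.

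A second set of windows shows the 20 bases that follow models whose 3' end lies away from annotated ends. These 3 were picked after their sequences were seen, among the leading models with at least 12 A in that window, and capitals mark A.
Gm43126 in replicate 1, chr6:127128763-127128782, plus strand: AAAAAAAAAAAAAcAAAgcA
Gm20659 in both libraries, chr11:101972951-101972970, plus strand: AAAAAAAAAAAAAAAAAAAA
Pabpc4 in replicate 2, chr4:123282846-123282865, plus strand: gAAAAAAgAAAAAgcttAAA
Behind these windows stood 126 reads of Gm43126, an antisense gene, 28 and 24 reads of Gm20659, and 21 reads of Pabpc4, which codes for a poly(A)-binding protein. The part of priming at such stretches in these reads was not tested.

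Genomic models held 16852 reads in replicate 1, 3.72% of endogenous reads (Wilson 95% interval 3.67 to 3.78), and 21601 reads in replicate 2, 4.66% (4.60 to 4.72). The mean was 4.19% ± 0.664 (SD, n = 2). Intervals cover counting error only, and reads without molecular identifiers are not independent molecules. Most models were thin. Those of 1 read made up 61.4% and 61.2% of the models, while the 237 and 295 models with at least 10 reads held 38.6% and 39.5% of the reads. Nearly all were single-exon models, 5796 with 16445 reads and 7160 with 21046 reads, against 234 and 245 models of several exons. Median lengths were 816 bases in replicate 1 and 561 in replicate 2. Models of up to 10 bases numbered 318 and 449 and held 6.18% and 8.51% of the reads.

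Protein-coding genes carried 92.5% of Genomic reads in annotated genes in each library, against 97.0% and 96.5% of all reads of annotated genes. Genes annotated as antisense carried 3.66% and 2.71% of Genomic reads but 0.259% and 0.300% of all reads. For long intergenic noncoding RNA genes the shares were 1.88% and 2.07% of Genomic reads, against 0.353% and 0.515% of all. The reads were spread over many genes. Of 7770 genes with Genomic reads in either library, the leading 10 held 10.9% and the leading 100 held 27.6% of the 37604 reads. None of the reads of the mitochondrial genome's genes, 468 and 914, was Genomic. Those genes have no introns, so a single-exon read can match the annotated transcript. The absence of single-exon Genomic models there follows from how the class is built and is not a measured rate.

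Each single-exon model in an annotated gene was set against the exons of all annotated transcripts of its gene. Models whose bases were all exonic held 69.6% of 16098 reads in replicate 1 and 69.8% of 20703 in replicate 2, or 69.7% ± 0.172 (SD, n = 2). Models that crossed an exon edge within the gene held 14.2% and 12.8%, or 13.5% ± 0.945. Wholly intronic models held 10.3% and 14.8%, or 12.5% ± 3.15, and without the single gene Cmss1 these shares were 10.1% and 11.0%. Models that reached beyond the gene held 5.91% and 2.56%, or 4.24% ± 2.37. These shares describe the spans of the models and not the bases each read covered. Exonic models were short, with a median of 621 and 484 bases, and models across an exon edge were longer, 1703 and 1342 bases. Intronic models were the shortest, at 294 and 245 bases.

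**Figure D1:**
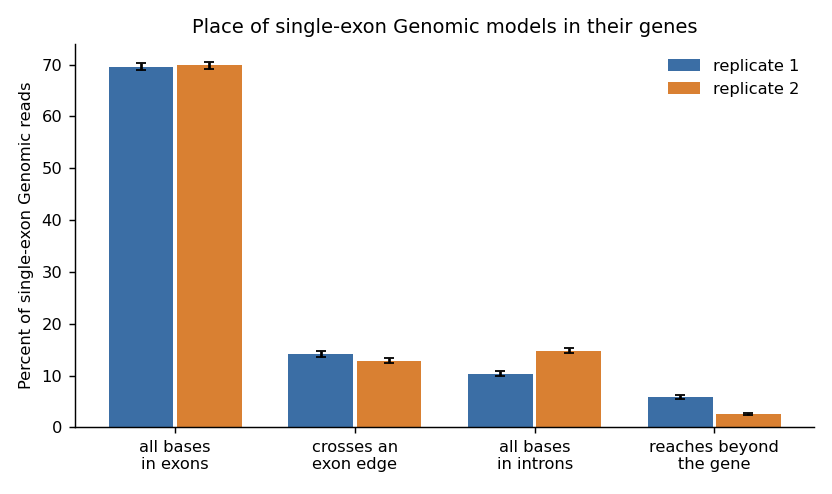
Percent of reads of single-exon Genomic models in annotated genes (vertical axis) by the place of the model, with bars for replicate 1 and replicate 2 and Wilson 95% intervals as error bars. Wholly exonic models hold 69.6% and 69.8%, and the libraries are furthest apart in the intronic (10.3% and 14.8%) and beyond-gene (5.91% and 2.56%) places.

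The 3' ends of these models were mostly annotated ones. Over all Genomic models in annotated genes, 66.0% of reads in replicate 1 and 61.9% in replicate 2 belonged to a model ending within 50 bases of an annotated 3' end of its gene, or 64.0% ± 2.88 (SD, n = 2). For 64.7% and 61.1% the end was the annotated base itself. Among single-exon models, ends 50 to 200 bases downstream of an annotated end held only 0.429% and 0.618% of reads. The sources used here do not say how a deposited end was set against the annotation, and this was not tested. Annotated ends, ends shared between libraries and hexamers at such ends may therefore describe the annotation as well as the reads. The 5' ends differed from this, since only 9.08% and 7.16% of reads had a model starting within 50 bases of an annotated start. Among exonic models, 85.5% and 84.0% of reads had an annotated 3' end and 1.29% and 1.81% an annotated start. Among models across an exon edge, 49.0% and 31.8% had an annotated end, and 54.2% and 42.5% an annotated start. Single-exon ISM models, the most similar class, had an annotated 3' end for 82.9% of 5988 reads and 91.7% of 8820 reads. The length of the underlying RNA molecules cannot be read from these tables.

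**Figure D2:**
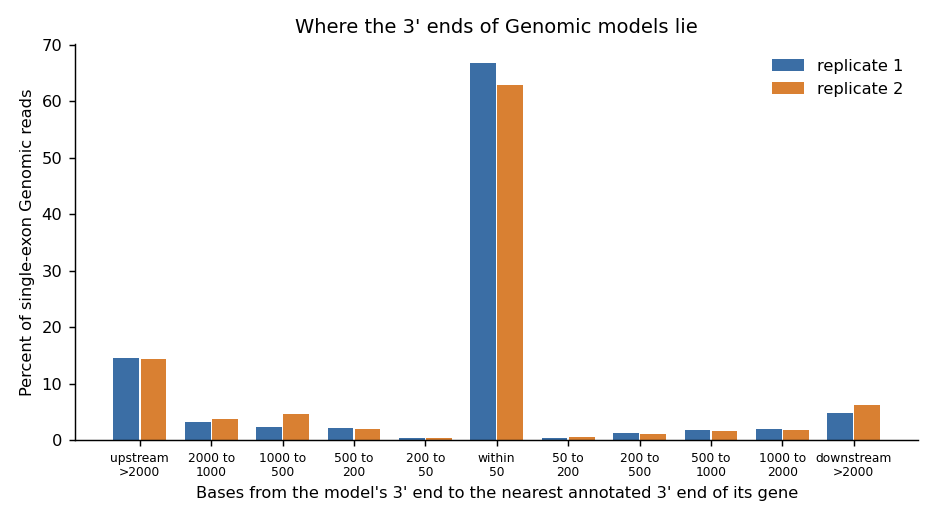
Percent of reads of single-exon Genomic models in annotated genes (vertical axis) by the distance in bases from the model's 3' end to the nearest annotated 3' end of the same gene (horizontal axis, upstream to the left), with bars for replicate 1 and replicate 2. Ends within 50 bases hold 66.8% and 62.9% of reads, and the next highest bars are ends more than 2000 bases upstream, with 14.5% and 14.4%.

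The hexamer AATAAA was searched on the strand of the gene in the 50 bases that close at each model's 3' end, where these lie inside 1 annotated exon. For Genomic models under 50 bases, with 1286 and 2203 reads, part of that window lies outside the model. In exonic models with an annotated 3' end it was present for 75.2% ± 0.241 of reads (SD, n = 2), and 99.8% of these reads had a window that could be read. In exonic models ending elsewhere it was present for 31.6% and 35.9% of reads. The same search gave 65.3% ± 0.275 (SD, n = 2) in the last 50 bases of Known transcripts weighted by reads, and 2.17% of all 17833736 windows of 50 bases in the leading transcripts. Exonic ends away from annotated ones were therefore intermediate between annotated ends and windows at large. At least 12 A stood in the 20 bases after 10.1% and 11.0% of the reads of these exonic ends, against 0.964% of all 20-base windows, and 99.1% and 98.6% of the reads had a readable window. After exonic models at an annotated end the check gave 3.41% and 5.13%, with 22.9% and 23.3% of reads readable. Away from annotated ends it gave 63.1% and 30.1% for models beyond the gene, with 32.2% and 29.4% readable. Counted by models, these were only 15 of 62 readable ones in replicate 1 and 9 of 56 in replicate 2. Gm43126 alone held 126 of the reads behind the value of replicate 1, and Gm20659 held 28 and 24 in the libraries. For models across an exon edge ending away from annotated ends the check gave 17.8% and 7.14%, with 32.4% and 52.5% readable. For intronic models such a window could be read for only 12.2% and 9.72% of reads, so the same check is void there. A match of letters is a description and not a measured processing site.

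Most of the exonic models sat in the last exon. Of the reads of single-exon models, 57.3% and 55.1% lay entirely within the last exon of the gene's leading annotated transcript, the one with most reads. Genes with a long last exon had a larger Genomic share of reads. Genes with at least 50 reads in each library and a spliced leading transcript were split into 4 groups by the length of its last exon, 353 to 358 genes each. With last exons of 63 to 354 bases, Genomic reads were 0.692% of all reads of these genes in replicate 1 and 0.842% in replicate 2. The next groups stood at 1.99% and 2.16%, then at 3.30% and 4.23%. With last exons of 1362 to 9291 bases the values were 4.17% and 6.11%. The share of genes with any Genomic read rose along the same groups from 33.1% in each library to 67.4% and 69.4%. Across these 1423 genes Spearman's rho between last exon length and Genomic share was 0.31 and 0.34, as a description over genes that share libraries and depth. Genes whose annotated transcripts all have 1 exon stood apart by construction of the class: of 1183 such genes with reads none had a single-exon Genomic model, since such a read can match the annotated transcript.

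**Figure D3:**
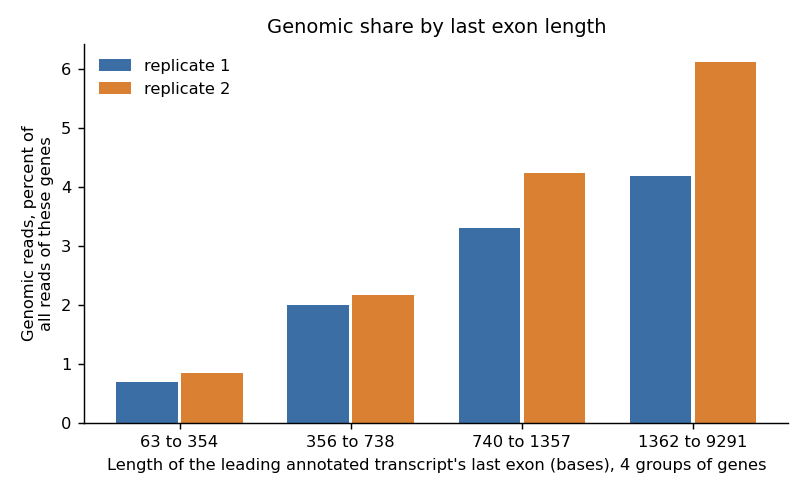
Genomic reads as a percent of all reads of the genes (vertical axis) in 4 groups of genes by last exon length in bases (horizontal axis), with bars for replicate 1 and replicate 2. The value is higher in each group with longer last exons, from 0.692% and 0.842% to 4.17% and 6.11%.

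Among genes of the cortex's steroid pathway other than Cyp11a1, Hsd3b1 had the most Genomic reads in replicate 1. This gene codes for the 3-beta-hydroxysteroid dehydrogenase that turns pregnenolone into progesterone. It had 223 Genomic reads in replicate 1 and 268 in replicate 2, 7.52% and 9.97% of all its reads. Nearly all stood in 1 model per library with the same start inside the gene. In replicate 1 that model had 222 reads, spanned 2881 bases and ran 2329 bases past the annotated end. In replicate 2 it had 266 reads, was 552 bases long and stopped at that end. These 222 reads were part of the 952 beyond-gene reads of replicate 1, where replicate 2 had 530.

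Star carries cholesterol to the inner mitochondrial membrane. It had 18 Genomic reads in replicate 1 and 391 in replicate 2, out of 5066 and 3475 reads in all. The model behind this in replicate 2 had 385 reads, and was 2693 bases long, 2539 of them exonic. Replicate 1 had 2 single-exon ISM models over the same stretch, of 748 bases with 293 reads and of 1944 bases with 147 reads. The second of these shares the AATAAA window printed for Star. With single-exon Genomic and ISM reads added up, Star had 458 and 390 reads in the libraries.

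Cyp11b1, the 11-beta-hydroxylase, had 122 and 175 Genomic reads, 4.96% and 7.77% of its reads. They fell on either side of 1 position on chromosome 15. Models ending there, 746 bases before the annotated end, had 80 and 119 reads, and models beginning there had 41 and 42 reads and ran 1507 bases past the annotated end. Cyp21a1, the 21-hydroxylase, had 117 and 137 Genomic reads, only 1.76% and 2.56% of its reads, in 1 model per library at the annotated 3' end. Scarb1, the receptor that takes up cholesterol from high-density lipoprotein, had 65 and 49. None of Hsd3b1, Cyp11b1, Cyp21a1 or Scarb1 passed the test between libraries described further on.

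Outside steroid enzymes Apoe had the most Genomic reads after Cmss1. It codes for the apolipoprotein E of lipoprotein particles. It had 303 Genomic reads in replicate 1 and 370 in replicate 2, 670 and 799 CPM. That was 21.5% (Wilson 95% interval 19.4 to 23.7) and 25.2% (23.1 to 27.5) of its reads. All of them stood in 1 model, the same 354 bases of the last exon in both libraries, closed by the annotated 3' end. Kcnk3, the acid-sensitive potassium channel TASK-1, behaved alike with 202 and 191 reads, of which 202 and 189 stood in the same model of 1730 bases. Its Genomic share was 13.6% and 18.5%. Scd1, the stearoyl-CoA desaturase, had 100 and 146 reads, 22.4% and 27.2% of its reads. Fads2, the delta-6 fatty acid desaturase, had 83 and 123. Its leading model spanned 1320 bases in replicate 1 and 1 base in replicate 2, with 80 and 121 reads and the same annotated 3' end.

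Models of 1 or a few bases recurred in other genes. Polr2l, a small subunit shared by RNA polymerases, had 98 reads in a model of 296 bases in replicate 1 and 108 reads in a model of 1 base in replicate 2, at the same start. Sparc, an extracellular matrix protein, had 55 reads on 1 base in replicate 1 and 46 reads on 887 bases in replicate 2, with the same 3' end. Aamp had a model of 7 bases with 38 and 52 reads in both libraries. Polr2l thus shared a start and Sparc an end between libraries while the spans differed, and Aamp shared the whole span. Lengths and places of single models carry less than the read counts. Without models under 50 bases the exonic share of reads was 66.8% in place of 69.7%.

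Across genes the Genomic share was usually low. Among 1509 genes with at least 50 reads in each library its median was 0.205% in replicate 1 and 0.800% in replicate 2. It was above 10% in both libraries in 66 genes and above 50% in both in 5. AC154200.1, a long noncoding RNA gene, had Genomic reads only, 63 and 53. Nearly all lay in the same 280 intronic bases, which overlap an exon of the pseudogene Oaz1-ps on the same strand, so their assignment to AC154200.1 is uncertain. Gadd45gip1, a protein of the mitochondrial ribosome and of cell cycle control, had 81 and 113 Genomic reads, 55.5% and 59.5% of its total. Its leading model spanned 217 bases in the former library and 2155 bases in the latter, the second holding a whole intron, with the same end 1158 bases before the annotated one. The mitochondrial ribosomal proteins Mrpl30 (60.8% and 52.3%) and Mrpl24 (50.6% and 54.2%) and the nuclear receptor Esrra (36 of 72 and 47 of 104 reads) followed. For Mrpl30 that was 76 and 78 reads in the same model of 174 bases, at an annotated 3' end.

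Intronic models made up 829 models with 1661 reads in replicate 1 and 1254 models with 3057 reads in replicate 2, mostly of 1 read (646 and 992 models). Exons of another gene on the same strand overlapped models holding 14.2% and 7.16% of these reads. Cmss1, which codes for a small ribosomal subunit factor, stood out. It had 35 Genomic reads in replicate 1 and 882 in replicate 2, while its reads of all other classes numbered 3 and 2. The model of replicate 2 had 881 reads over 528 bases, chr16:57391113-57391640 on the minus strand, inside an intron. That of replicate 1 lay within it, at 439 bases. This 1 model held 28.8% of the intronic reads of replicate 2. Jarid2, a cofactor of the Polycomb complex PRC2, had 11 and 89 reads in an intronic model of 250 and 251 bases with the same start.

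Cmss1 was 24.6 times higher in replicate 2 (exact 95% interval of the ratio 17.6 to 35.6) and Jarid2 7.90 times (4.21 to 16.4). Reads of all classes overlapping the ribosomal RNA locus, taken as the span of the noncoding gene Gm42418, chr17:39846958-39848788, moved in the same direction. They numbered 484 in replicate 1 and 4840 in replicate 2, 0.107% and 1.04% of endogenous reads and 9.77 times higher. Of these, 260 and 4250 were of class Antisense, 223 and 589 Known, and 1 in each library Genomic. Reads assigned to Gm42418 itself numbered 108 and 454, those of Gm26917 56 and 83, and those of AY036118 114 and 134. The part of that locus in the Cmss1 and Jarid2 counts was not tested. Other intronic models went the opposite way. Abi1, a regulator of actin assembly, had 98 and 35 Genomic reads, all intronic but 1 read of replicate 2, and was 2.87 times lower in replicate 2 (1.93 to 4.35). Gm7247 had 133 reads in replicate 1 and 0 in replicate 2, where no read of any class was assigned to it.

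Some models across an exon edge kept whole introns: 406 of 986 such models in replicate 1 (41.2%) and 381 of 1028 in replicate 2 (37.1%). Introns were counted over all annotated transcripts of a gene, so overlapping alternatives of 1 intron count separately. The counts below are therefore annotated introns spanned, which can exceed the introns of any 1 transcript. Tsc22d1, a leucine zipper protein, had the same model in both libraries, 3233 bases from annotated start to annotated end. It spanned 2 annotated introns and had 57 and 30 reads. Uqcr10, a subunit of respiratory complex III, had 7 and 32 reads in a model of 2362 bases from start to end of the gene, spanning 3. Rps15, a ribosomal protein, had 17 and 30 reads in models that spanned 3 annotated introns. In replicate 1 Cfl1, the actin-severing protein cofilin, had a model of 3545 bases over 5 annotated introns with 85 reads. In replicate 2 Cfl1 had 0 Genomic reads and 82 reads in a single-exon ISM model of 649 bases with the same 3' end. How many of the 85 reads themselves covered introns cannot be seen in these tables.

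Models of several exons were few, and most of their intron chains were found in 1 library only. In annotated genes they formed 362 intron chains, 286 of them with 2 exons. The 26 chains found in both libraries held 150 of 337 reads in replicate 1 and 280 of 466 in replicate 2. Snord104, a small nucleolar RNA that guides methylation of ribosomal RNA, led them with 61 and 160 Genomic reads, 84.7% and 89.4% of the reads assigned to it and 2.56 times more in replicate 2 (exact 95% interval 1.90 to 3.50). Its model has an intron at chr11:106500941-106501132 and the snoRNA gene, chr11:106500993-106501062, lies inside that intron, so no base of the model's exons is snoRNA. Snora57 showed the same layout with 16 and 41 reads: an intron at chr19:8888468-8888749 around the gene at chr19:8888538-8888685. In both genes these reads follow a spliced RNA that contains the snoRNA in its intron, and not the snoRNA. Rtl8c, a gene derived from a retrotransposon, had 31 and 33 reads of a chain whose second exon begins past the annotated gene end. The 109 genes with only single-exon annotated transcripts that had Genomic reads, 197 and 323 of them, had them in models of several exons. Examples were Gas1, a growth arrest protein, with 4 and 5 reads, and the transcription factor Jun with 2 and 6.

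Overlap between the libraries depended on how a match was defined. Of the genes with Genomic reads in replicate 1, 61.4% also had them in replicate 2, and 52.5% the other way round. With at least 5 Genomic reads in a library these shares were 83.1% and 85.0%. Counted by reads, 43.2% and 44.2% had a model that met a model of the other library by 50% of both lengths, and 66.0% and 67.2% one that it met at all. Identical start and end was shared by 681 models with 21.1% and 20.6% of the reads. A shared 3' end within 50 bases was found for 57.4% and 56.8%.

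**Figure D4:**
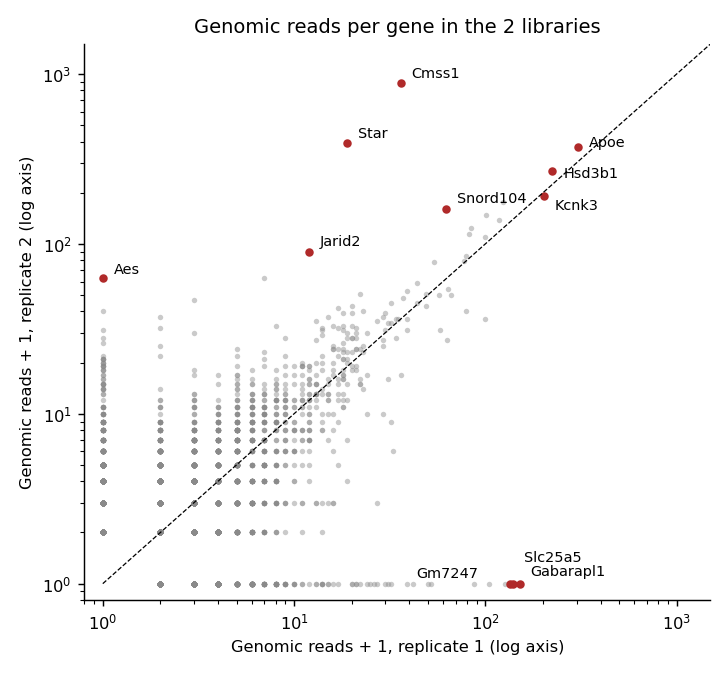
Genomic reads per gene plus 1 in replicate 1 (horizontal log axis) against replicate 2 (vertical log axis), each point a gene and the dashed line equality, with 11 named genes in red. Apoe, Hsd3b1 and Kcnk3 lie close to the line, Cmss1, Star and Jarid2 above it, and the row of points along each axis holds genes with 0 Genomic reads in the other library.

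Reads of each gene and class were compared between the libraries by Fisher's exact test (two-sided), adjusted by Benjamini-Hochberg over all 9537 gene and class pairs with at least 10 reads. To be called, a pair needed an adjusted p below 0.05 and a ratio of 2 or more with 1 CPM added to each level. The test compares these 2 libraries and not conditions, and counting error is the only error in it. Of 664 genes with enough Genomic reads, 113 were called (17.0%), against 5.19% of all pairs. Of these, 65 were higher in replicate 2 and 48 in replicate 1, where all pairs gave 2.51% and 2.68%. The share called was 8.58% for ISM and 3.41% for Known. The median log2 ratio of replicate 2 to replicate 1 was 0.36 for Genomic and -0.03 for all pairs. So genes differed between the libraries more often in this class than in the table as a whole.

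Many of the called genes had their single-exon reads in another class in the other library. In 77 of the 113 called genes 1 library had 0 Genomic reads, and in 64 of those the same library had single-exon ISM reads. In replicate 1, 249 genes had at least 10 Genomic reads, and 35 of them had 0 in replicate 2. Of these 35, 31 had single-exon ISM reads in replicate 2. The 31 genes had 1048 Genomic reads and 1 single-exon ISM read in replicate 1, and 1394 single-exon ISM reads in replicate 2. In the opposite direction 42 of 327 genes had 0 Genomic reads in replicate 1, and 33 of them had single-exon ISM reads there. These 33 had 603 Genomic and 2 single-exon ISM reads in replicate 2, against 481 ISM reads in replicate 1. The share of all Genomic genes that have single-exon ISM reads is not given here. These counts therefore describe the genes picked and cannot be called a trait particular to them.

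Gabarapl1, an autophagy protein of the GABARAP family, had 150 Genomic reads in replicate 1 and 0 in replicate 2. That was at least 51.2-fold lower with a floor of 3 counts in the library at 0 (adjusted p = 4.7e-44, Fisher's exact test). Replicate 2 had 184 reads in a single-exon ISM model with the same 3' end. Slc25a5, the mitochondrial ADP/ATP carrier, had 138 Genomic reads in replicate 1 and 149 single-exon ISM reads in replicate 2. Cidea, a lipid droplet protein of fat cells, had 103 and 264. In these 3 genes replicate 1 had no single-exon ISM read and replicate 2 no Genomic read.

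The reverse was seen in Aes, a corepressor, with 33 single-exon ISM reads in replicate 1 and 62 Genomic reads in replicate 2. Eef2, the elongation factor that moves the ribosome along, had 23 and 39, and Cyb5b, a cytochrome b5 of mitochondria, had 35 and 30. Another class took part at Gm43126, with 126 Genomic reads in replicate 1 and 0 in replicate 2, where a model of class Antisense overlapping it on the same strand had 148 reads. When single-exon Genomic and ISM reads were added up per gene before the test, 63 of 967 genes were called (6.51%). Of all pairs 3.73% were called. Of the 967 genes, 46 were called higher in replicate 2 and 17 in replicate 1, where all pairs gave 1.78% and 1.95%. Of the 113 genes called before, 43 were called here too, 39 in the same direction and 4 in the other. The 4 were Cidea, Chga, Fasn, the fatty acid synthase, and Srd5a2. Cidea had 103 pooled reads in replicate 1 and 264 in replicate 2 (log2 ratio 1.32). Gabarapl1, Slc25a5, Aes, Eef2, Cyb5b and Star were not called after pooling. Cmss1, Jarid2, Abi1, Gm7247 and Gm43126 were called in the same direction. This pooling was chosen after the data were seen.

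**Figure D5:**
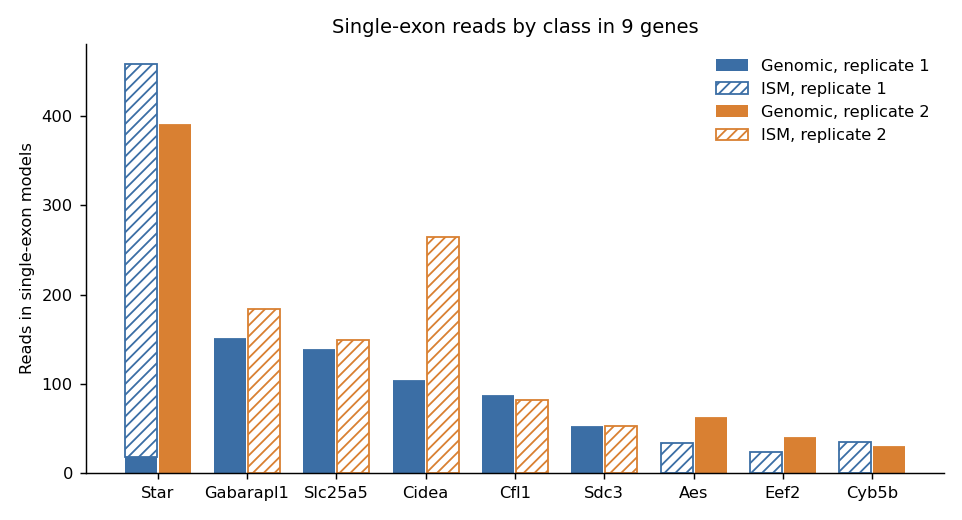
Reads in single-exon models (vertical axis) of 9 genes, stacked by class, Genomic as filled and ISM as hatched bars, in blue for replicate 1 and orange for replicate 2. Gabarapl1 has 150 Genomic reads in replicate 1 and 184 ISM reads in replicate 2, Star 440 ISM reads in replicate 1 and 390 Genomic reads in replicate 2, and the stacked heights are closer than either class alone in 8 of the genes, Cidea being the exception.

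The Genomic share of a gene's reads was tested the same way in 2209 genes with at least 20 reads in each library. A call needed an adjusted p below 0.05 and a difference of 10 percentage points or more. By this rule 44 genes were called, 1.99% of those tested. The share was higher in replicate 2 in 23 of them (1.04%) and in replicate 1 in 21 (0.95%). All genes tested here are Genomic ones, so these percents are themselves the background. Sdc3, a membrane proteoglycan, had a share of 58.0% in replicate 1 and 0% in replicate 2 (51 of 88 and 0 of 98 reads, adjusted p = 1.49e-19 by Fisher's exact test). Ywhag, a 14-3-3 protein, had 1.37% and 33.6%, and Mlxipl, the carbohydrate-sensing factor ChREBP, had 0% and 47.5%. With single-exon ISM reads counted in the share, none of 2801 genes was called by the same test, 4 had an adjusted p under 0.05 at any size, and 142 had an unadjusted p under 0.05. In Sdc3 the pooled shares were 58.0% and 54.1%.

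Gene lists of the tissue showed both patterns. Of 21 steroid synthesis genes other than Cyp11a1, 16 had Genomic reads and 13 were tested. Star and Srd5a2 were called higher in replicate 2, and Akr1b7 and Fdx1 higher in replicate 1, or 4 of 13 where 17.0% of all Genomic genes and 5.19% of all pairs were called. Each of these 4 had single-exon ISM reads in the library where Genomic reads were low: 440 for Star, 37 for Srd5a2, 16 for Akr1b7 and 10 for Fdx1. After pooling Srd5a2 was called the other way, with 37 and 14 reads (adjusted p = 0.0216, Fisher's exact test), and Star, Akr1b7 and Fdx1 were not called. The list's median log2 ratio was 0.23, and Genomic reads were 2.39% and 5.09% of its reads, or 3.74% ± 1.91 (SD, n = 2). Hsd3b1, Cyp21a1, Scarb1, Fdxr and Soat1, with no single-exon ISM reads in either library, were among the 9 genes not called. Cyp11b1, with 0 and 2 single-exon ISM reads, was not called either.

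Of 25 chromaffin genes, 6 were tested and 4 called, against the same 17.0% and 5.19%. Chga, the chromogranin A of secretory granules, had 49 Genomic reads in replicate 1 and 0 in replicate 2, with 113 single-exon ISM reads there, so that after pooling it was called higher in replicate 2. Pnmt, the enzyme that makes adrenaline, had 19 and 0, and Chgb 12 and 0, again with ISM reads in replicate 2, 34 and 26. Pcsk1n had 0 and 20, with 16 ISM reads in replicate 1. After pooling Pnmt, Chgb and Pcsk1n were not called. Th, the enzyme that starts catecholamine synthesis, had 15 and 23 and was not called. The Genomic share of the list was 1.51% ± 0.642 (SD, n = 2).

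Other lists were smaller. Of 10 fat genes 7 were tested, 1 called higher in replicate 2 and 3 in replicate 1, against the same 17.0% and 5.19%. Cidea was among the latter and turned on pooling, and the other 3 called genes were then not called. Plin1 of the same list, not called before, was called higher in replicate 2 after pooling, with 19 and 45 reads. Among pancreas acinar genes the 3 tested were called higher in replicate 2, against the same 17.0% and 5.19%. They were Cela1 with 1 and 24 Genomic reads, Try5 with 0 and 20 and Amy2a5 with 0 and 14. All 3 met the minimum of 10 reads only through replicate 2, so their direction is not a separate result. They had no single-exon ISM reads, and the list as a whole had 40 and 4691 reads of all classes. The immediate early gene Nr4a1, a nuclear receptor, had 20 and 0 Genomic reads, while its reads of all classes numbered 519 and 8. Of the same list Fosl2, an AP-1 factor, had 12 in each library, 66.7% and 70.6% of its reads. Hbb-bs, a haemoglobin chain, had 0 and 21 Genomic reads and 18 and 0 single-exon ISM reads. Hsp90ab1 was the 1 heat shock gene tested, with 11 and 0. Of 12 nuclear-retained noncoding RNAs only Meg3 had enough reads for the test, with 4 and 9, and it was not called. The list's Genomic share was 2.50% and 5.25%. Among 20 intronless protein genes and 10 liver genes no gene had enough Genomic reads to be tested.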

How the data were processed

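Long-read RNA sequencing was deposited for 1 group of 2 libraries. Per the file headers and the library notes, the authors assigned reads to GENCODE M21 transcripts on mm10 or to unannotated models, and deposited whole read counts per model without normalizing them. Column names are those of the program TALON. The aligner, tool versions and strand setting were not given in the sources used here. Spike-in rows (5512 and 15792 reads) were left out of all totals.

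Rows of class Genomic were joined to the start, end and strand in the deposited model files and compared with the M21 exons of the same gene and strand. All 834362 annotated exons agreed between both model files and M21. Reads were scaled to endogenous reads. Shares carry Wilson 95% intervals and ratios exact conditional ones. Fisher's exact test (scipy 1.17.1) with Benjamini-Hochberg adjustment ran over the whole table and was tried on simulated reads. Those reads varied by counting error only, so they cannot show how the test behaves under other spread between libraries. edgeR 4.0.16 gave TMM factors for 1 alternative. No genome sequence was used, so windows were read from transcript sequences and only inside 1 annotated exon. A comparison of bases downstream of Known transcripts was not run.

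The models, lists and tests were chosen with earlier results of these data known. Named genes followed a rule: the 15 genes with most Genomic reads, the 8 with the highest share (at least 50 reads in each library), up to 6 called genes each way by level and by share, the 6 leading models of several exons, and the 2 leading members of each of 11 lists. Aamp, Abi1, Akr1b7, Amy2a5, Chgb, Fasn, Fdx1, Fdxr, Gm20659, Jarid2, Oaz1-ps, Pabpc4, Pcsk1n, Pnmt, Rps15, Scarb1, Soat1, Sparc, Srd5a2, Th, Tsc22d1 and Uqcr10 were named after their values were seen. Alternatives changed the exon set, edge and end tolerances, weighting of models, read minimum, scaling and class pooling, or left out a library or gene.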

Additional observations from a re-analysis of the deposited data

How the results depend on the processing

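Of 82 alternative values, 54 stayed within the spread between libraries or within 1.5 times the count reported, and 28 moved. The 54 include the values that leave out a library, which stay within that spread by construction and so test nothing. Unless stated, the cause of a move was not tested. The exonic share of 69.7%, whose spread was small, moved to 68.8% without retained-intron transcripts, 70.1% with an edge tolerance of 10 bases and 64.3% with each model counted once. Added after seeing the data, it was 57.6% for models of 1 read, 66.8% for models of at least 50 bases and 71.3% without Cmss1. In the same order, the share across exon edges moved to 11.4% (tolerance), 16.0% (each model once), 18.1% (1 read) and 14.9% (at least 50 bases), and the intronic share to 16.2% (each model once) and 21.1% (1 read). Ends at annotated 3' ends were 55.7% with each model counted once and 47.3% for models of 1 read. With Cyp11a1 included, Genomic reads were 5.55% of endogenous reads. The share of genes found in the other library was 84.1% with at least 5 Genomic reads, and the share of reads with a matching model 66.6% by any overlap and, added later, 57.1% by 3' end. A-rich windows after exonic ends were 8.71% with at least 14 A and 12.8% with each model counted once.

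Called levels were 60 (32 higher in replicate 2, 28 in replicate 1) at 20 or more reads, where fewer genes are tested, and 63 with single-exon classes pooled, 17 of them higher in replicate 1, with 4 genes (Cidea, Chga, Fasn, Srd5a2) turned in direction. Called shares were 0 after pooling, in either direction (0 and 0). Leaving out a library gave 3.72% to 4.66% for the Genomic share of reads and 61.9% to 66.0% for annotated 3' ends, and allows no test between libraries. No paired analysis was possible because there is 1 group. Depth limits the single genes: 0 reads of a model could still mean 6.63 CPM in replicate 1 and 6.48 CPM in replicate 2.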
